A study of Homo sapiens with 8 samples.

Results

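ATF4 and 9 genes that are widely used as readouts of amino acid stress were followed in NB4 leukemia cells with and without KDM3B knockdown and all-trans retinoic acid (ATRA). The 10 genes were chosen by name: ATF4, DDIT3, DDIT4, TRIB3, CHAC1, ASNS, PSAT1, PHGDH, PSPH and SESN2. Each of them had a line in every library, among 37526 gene names that all 8 libraries shared. Counts were high enough to test 9 of the 10, and CHAC1 was not tested in any comparison.

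NB4 is a human acute promyelocytic leukemia line that carries the PML/RARα fusion. The cells were stably transduced with pLVX-shRNA2-puro, either without an insert as the labels have it (a scrambled hairpin in the study's methods; shNC) or with a hairpin against KDM3B (shKDM3B), a histone H3K9 demethylase. Both kinds of cell were sequenced as undifferentiated cells (shNC and shKDM3B) and as differentiated cells after 1 µM ATRA (shNC_ATRA and shKDM3B_ATRA), with 2 libraries in each of the 4 groups. The labels give 24 or 48 h of ATRA without saying which library had which, nor which of the study's hairpins was used, and nothing says that the replicates were separate cultures, so that P-values measure the spread between these libraries only.

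ATF4 is a bZIP transcription factor whose protein is made mainly when the initiation factor eIF2 is phosphorylated, for example by GCN2 (EIF2AK4) when an amino acid runs short. Its mRNA level is therefore an incomplete guide to its activity, and the mRNAs of its targets are commonly read in its place. Among these targets, DDIT3 (CHOP) encodes a bZIP partner, TRIB3 a pseudokinase that feeds back on the pathway and CHAC1 a glutathione-degrading enzyme. DDIT4 (REDD1) and SESN2 restrain mTORC1, ASNS makes asparagine, and PHGDH, PSAT1 and PSPH are the successive enzymes of serine synthesis from a glycolytic intermediate.

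Many genes of this pathway carry near their promoters a composite C/EBP-ATF site, through which ATF4 is known to act. The core TGATGNAA, where N is any base, was searched on both strands (TTNCATCA on the other) in the 1000 bases before the RefSeq starts of GRCh38.p14. It was found for 7 of the 9 genes that the RefSeq promoter table holds (PSPH is not in it), and for 15.1% of all 27305 genes of the table. No match was found for ATF4 and PSAT1, which says only that these letters do not occur in those windows. The matches of the 7 genes are shown because this site is the one through which the pathway is best known to act, and they are letter matches, not measured sites. Each window is written 5′ to 3′ on the strand of its gene, with the match in capitals, and coordinates are those of hg38.
TRIB3, chr20:380881-380910, plus strand, 403 bases before the start: ttagctccggtTTGCATCAcccggaccggg
CHAC1, chr15:40953251-40953280, plus strand, 209 bases before the start: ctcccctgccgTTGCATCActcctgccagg
DDIT3, chr12:57520802-57520831, minus strand, 306 bases before the start: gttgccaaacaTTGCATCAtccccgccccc
SESN2, chr1:28259211-28259240, plus strand, 296 bases before the start: gtgaagtccctTTTCATCAcgcaaccctaa
ASNS, chr7:97872458-97872487, minus strand, 68 bases before the start: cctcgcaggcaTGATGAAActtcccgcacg
DDIT4, chr10:72272967-72272996, plus strand, 946 bases before the start: gtcctcggtccTGATGCAAccgtctggatc
PHGDH, chr1:119710969-119710998, plus strand, 954 bases before the start: cataattctcaTTGCATCActaatttgaaa
The TRIB3 window occurs 3 times without a change of letter, the other copies lying 370 and 337 bases before the start. DDIT3, TRIB3, CHAC1 and PHGDH share the same 8 letters, TTGCATCA, and DDIT4 carries their reverse complement, TGATGCAA. ASNS has a second match 886 bases before its start, at chr7:97873276-97873305.

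Between 9708739 and 33017787 counts fell on genes per library. The counting placed some reads on no gene, and these need not lie outside genes, since its strand setting is not given. Such reads were 8.49 to 9.62% in the 4 untreated libraries and 9.36% in shNC_ATRA replicate 1. They were 50.0, 51.4 and 51.0% in shNC_ATRA replicate 2 and both shKDM3B_ATRA libraries. These 3 libraries also had 0.685 to 0.702% of their counts on antisense gene names, against 0.274 to 0.329% in the other 5. Within shNC_ATRA against shNC the library that stands apart is shNC_ATRA replicate 2, and within shKDM3B_ATRA against shNC_ATRA it is shNC_ATRA replicate 1. The members' values without it follow beside each result, and those of the other genes are summed up per comparison. In shKDM3B_ATRA against shKDM3B the split coincides with ATRA, and the split and ATRA cannot be told apart there. KDM3B itself stood at 187 and 188 CPM (counts scaled to the size of each library) in shNC, 76.3 and 86.2 in shKDM3B, 196 and 121 in shNC_ATRA and 52.5 and 57.4 in shKDM3B_ATRA, called lower with the hairpin both without ATRA (log2 −1.21, SE 0.15) and with it (log2 −1.53, SE 0.29). Of 6 promyelocyte markers, MPO, CTSG and CD33 exceeded 1 CPM in every group, whereas ELANE, PRTN3 and AZU1 stayed under 1 CPM on average. The summed markers were 4452 to 5534 CPM in shNC, 8554 to 9723 in shKDM3B, 707 to 844 in shNC_ATRA and 2323 to 3224 in shKDM3B_ATRA. MPO carried most of each sum, with means of 4814, 8928, 673 and 2674 CPM in the same order. CTSG had means of 110, 138, 3.21 and 1.85 CPM and CD33 of 68.7, 71.1, 99.2 and 95.6 CPM, so that the markers did not all move one way. Of 10 markers of other cells, HBB, HBA1 and MS4A1 were among those at 0 in all libraries, and the summed list lay at 46.2 to 64.1 CPM without ATRA and 88.4 to 118 CPM with it. PECAM1 carried most of each sum, with means of 38.8, 32.7, 90.3 and 65.9 CPM in shNC, shKDM3B, shNC_ATRA and shKDM3B_ATRA. EPCAM had means of 18.0, 16.3, 13.7 and 17.4 CPM in the same order. The part of these differences in the results below was not tested. In bulk RNA, fewer cells with a transcript and less of it per cell cannot be told apart.

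Levels are given as CPM after TMM scaling of all 8 libraries together, while each fold change comes from the fit of its own comparison, so the values differ slightly. Per kilobase of the canonical transcript, the mean level in shNC was highest for ATF4, at 229 CPM per kb. PSAT1 (50.7), DDIT4 (42.1), PHGDH (36.4), TRIB3 (29.5) and PSPH (23.7) followed on the same scale. DDIT3 (11.9), ASNS (9.59), SESN2 (3.21) and CHAC1 (0.0771) were lowest. Between neighbours in this order, the replicate ranges of PSAT1 and DDIT4, of DDIT4 and PHGDH, of PHGDH and TRIB3 and of TRIB3 and PSPH overlapped. In shNC_ATRA the order below ATF4 was DDIT4 (62.6), PSAT1 (31.1), DDIT3 (30.8), PSPH (18.6), TRIB3 (16.4) and PHGDH (12.1 CPM per kb), so that DDIT3 had moved above PSPH, TRIB3 and PHGDH.

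**Figure D1:**
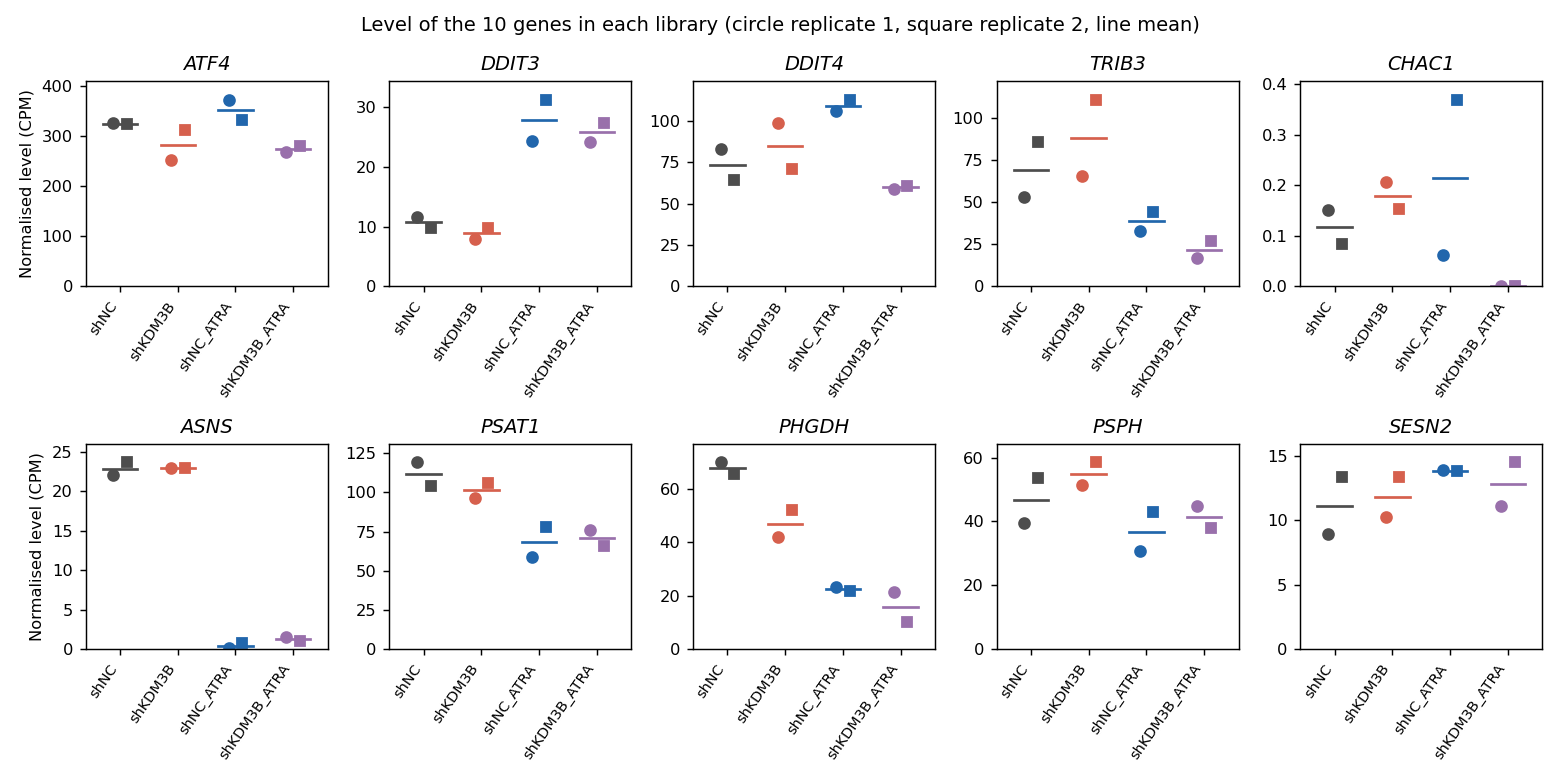
TMM-scaled level in CPM (vertical axes, each from 0) of the 10 genes in the 8 libraries, with circles for replicate 1, squares for replicate 2 and a line for the group mean. DDIT3 lies between 8.01 and 11.7 CPM without ATRA and between 24.2 and 31.3 CPM with it, whereas ATF4 stays between 253 and 373 CPM in every library.

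The effect of ATRA was examined in shNC cells by comparing shNC_ATRA with shNC. Calls follow the thresholds of the study, an unadjusted P under 0.05 with a change of 1.5-fold or more, here from the edgeR quasi-likelihood test, and adjusted p-values cover all genes of the fit. DDIT3 and DDIT4 were called higher and TRIB3, ASNS, PSAT1 and PHGDH lower, which is 6 of the 9 tested, against 25.9% of all 12429 genes. By direction, 2 were higher and 4 lower, where 15% and 10.8% of all genes were. At an adjusted p under 0.05, DDIT3 stayed higher and ASNS and PHGDH lower, 3 of 9 against 12.9% of all genes. ATF4, PSPH and SESN2 were not called. Both counts include ASNS, whose reads are in doubt for reasons given below. The untreated and treated libraries were counted against different lists of gene names, and the part of this in the ATRA comparisons was not tested.

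ATF4 mRNA, from chromosome 22 (39519695 to 39522683, plus strand), was not called. It stood at 326 and 324 CPM in shNC and at 373 and 333 CPM in shNC_ATRA, so that the treated libraries were the higher ones by a small margin. The log2 fold change was 0.15 (SE 0.20, adjusted p = 0.664), and 0.21 without shNC_ATRA replicate 2.

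DDIT3, the bZIP partner also called CHOP (chromosome 12, 57516588 to 57521737, minus strand), was low before ATRA, at 11.7 and 9.73 CPM in shNC. It reached 24.3 and 31.3 CPM in shNC_ATRA, above every untreated library. The rise was 2.66-fold (log2 1.41, SE 0.27, adjusted p = 0.0156), and without shNC_ATRA replicate 2 it was still called, with a log2 fold change of 1.19. Exons of other genes lie opposite to 31.6% of its exon length, mainly those of MARS1, at 27.2%. A protein-coding gene on the same strand, ENSG00000285133, covers 8.03%. How reads in these stretches were assigned was not tested, and the strand setting is not given.

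DDIT4, which acts on the TSC complex upstream of mTORC1 (chromosome 10, 72273919 to 72276036, plus strand), stood at 82.9 and 64.1 CPM in shNC. It was at 106 and 113 CPM in shNC_ATRA, and the groups did not overlap. The rise was 1.52-fold (log2 0.60, SE 0.22, adjusted p = 0.127). It lost its call without shNC_ATRA replicate 2, at a log2 fold change of 0.53, and without either shNC library, at 0.77 without replicate 1 and 0.42 without replicate 2. Scaling by library size, at 0.51, or by the upper quartile, at 0.54, ended the call too, leaving 1 member higher and 4 lower. So did using no filter, at 0.56, all 8 libraries in one fit, at 0.57, and the replicate block, at 0.61, so that the call was lost in 8 of 13 alternatives.

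TRIB3, the pseudokinase (chromosome 20, 362835 to 397559, plus strand), had 53.3 and 85.5 CPM in shNC and 33.0 and 44.4 CPM in shNC_ATRA. The shNC libraries were both higher but stood far apart from each other. The fall was 1.75-fold (log2 −0.81, SE 0.30, adjusted p = 0.133). Its log2 fold change was −1.07 without shNC_ATRA replicate 2, still called, and −0.44 without shNC replicate 2, no longer called. With all 8 libraries in one fit, at −0.85, the call was lost as well.

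The first and middle enzymes of serine synthesis both fell. PHGDH (chromosome 1, 119648411 to 119744218, plus strand) went from 70.0 and 65.8 CPM to 23.4 and 21.8 CPM, with close replicates in both groups. That was a 2.93-fold fall (log2 −1.55, SE 0.21, adjusted p = 0.00417), and every left-out library kept it between −1.61 and −1.53, the latter without shNC_ATRA replicate 2. PSAT1 (chromosome 9, 78297125 to 78330093, plus strand) had 119 and 104 CPM in shNC and 59.1 and 77.9 CPM in shNC_ATRA. It fell 1.59-fold (log2 −0.67, SE 0.23, adjusted p = 0.110). The call of PSAT1 was kept without shNC_ATRA replicate 2, at −0.91, and lost without shNC_ATRA replicate 1, at −0.49, and without shNC replicate 1 or 2, at −0.60 and −0.78. PSPH, the last enzyme (chromosome 7, 56011051 to 56051604, minus strand), was at 39.7 and 53.7 CPM in shNC and at 30.6 and 43.0 CPM in shNC_ATRA, overlapping, with a log2 fold change of −0.31 (SE 0.27). It was called lower, at −0.60, when shNC_ATRA replicate 2 was left out.

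ASNS, asparagine synthetase (chromosome 7, 97851677 to 97872542, minus strand), all but lost its counts in the ATRA-treated libraries. It had 440, 564, 447 and 748 counts in the untreated libraries, and 2, 8, 15 and 10 in the treated ones. As levels these are 22.1 and 23.7 CPM in shNC, 23.0 and 22.9 in shKDM3B, 0.123 and 0.738 in shNC_ATRA and 1.58 and 1.00 in shKDM3B_ATRA. The fitted log2 fold change in shNC cells was −5.81 (SE 0.64, adjusted p = 0.00182), and it moved to −4.91 without shNC_ATRA replicate 1 and −7.47 without shNC_ATRA replicate 2. The untreated and treated libraries were, however, counted against different lists of gene names, 56470 and 56609 long. In GENCODE v44 a long noncoding gene covers 49.3% of the ASNS exon length on the same strand, and HTSeq in its usual mode assigns no read that matches overlapping genes. Among 6476 shared names with at least 440 counts in every untreated library, 7 had at most 15 in every treated one, namely ASNS, ANXA8, PDE9A and 4 names derived from clones. Both limits are counts of ASNS itself, so its place among these 7 was fixed in advance and its overlap there is no test. Of the 7, 3 matched GENCODE v44, and ASNS was the 1 with a same-strand overlap of at least 25% of its exon length, since ANXA8 and PDE9A have none. Among all the shared names with that many untreated counts, 131 of 6275 matched genes have such an overlap. AC079781.5, a name beside ASNS, had 0 counts in the untreated libraries and 19, 12, 22 and 12 in the treated ones. A fall in ASNS mRNA and a change in how its reads were assigned cannot be told apart here.

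SESN2, a sestrin that binds leucine (chromosome 1, 28259518 to 28282491, plus strand), was at 8.94 and 13.3 CPM in shNC and 13.9 and 13.8 CPM in shNC_ATRA. Its log2 fold change was 0.35 (SE 0.31, adjusted p = 0.528), and 0.32 without shNC_ATRA replicate 2. CHAC1 (chromosome 15, 40952962 to 40956512, plus strand) had 3 and 2 counts in shNC, 4 and 5 in shKDM3B, 1 and 4 in shNC_ATRA and 0 and 0 in shKDM3B_ATRA. At that depth no difference between groups could be shown for CHAC1.

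**Figure D2:**
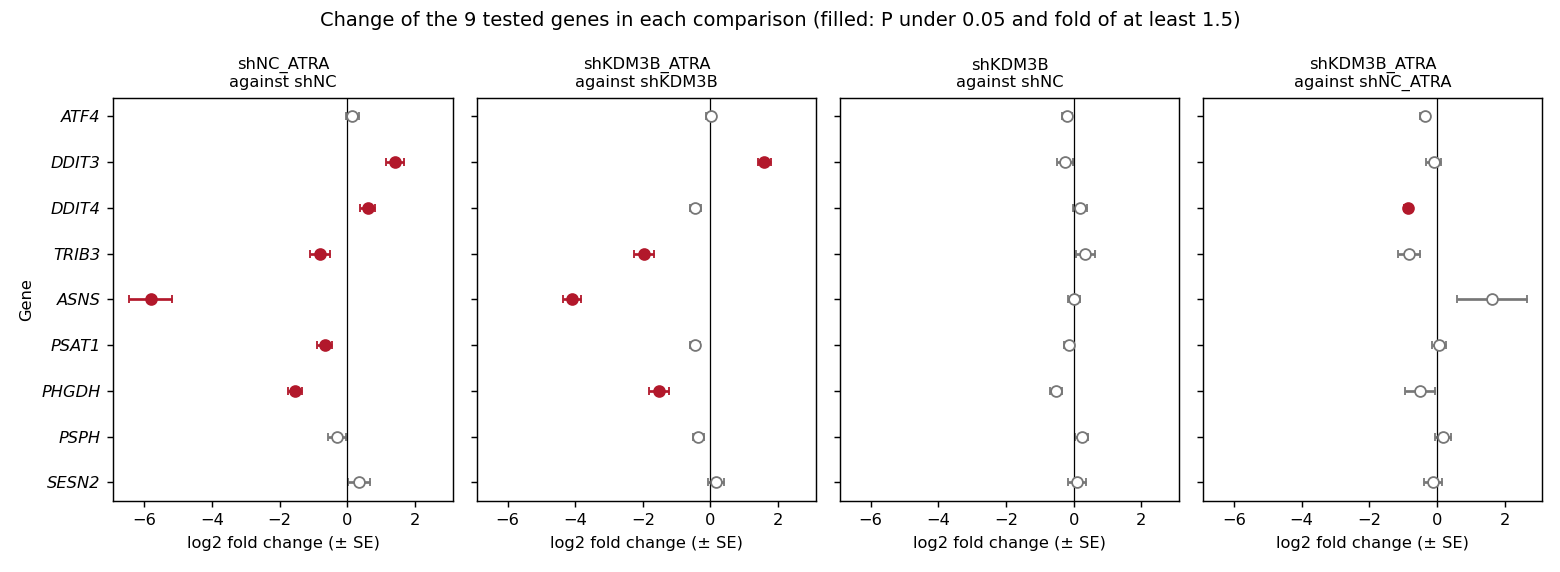
Log2 fold change (horizontal axis, bars ± SE) of the 9 tested genes (rows) in the 4 pairs of conditions (panels), filled where called (P under 0.05 and a change of 1.5-fold or more). In the ATRA panels, on the left, 6 and 4 genes are filled, and in the knockdown panels, on the right, 0 and 1.

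In knockdown cells ATRA was examined by comparing shKDM3B_ATRA with shKDM3B. DDIT3 rose and TRIB3, ASNS and PHGDH fell, 4 of 9 tested, against 42.2% of all 12756 genes (24% higher and 18.3% lower), and all 4 passed at an adjusted p under 0.05, as did 40.2% of all genes. The count of members is thus close to the share of all genes that moved. DDIT3 went from 8.01 and 9.73 CPM to 24.2 and 27.4 CPM, a 3.01-fold rise (log2 1.59, SE 0.19, adjusted p = 1.4e-04). TRIB3 went from 65.7 and 111 CPM to 16.6 and 26.9 CPM, a 3.91-fold fall (log2 −1.97, SE 0.28, adjusted p = 3.8e-04). PHGDH went from 41.9 and 52.0 CPM to 21.5 and 10.2 CPM, a 2.86-fold fall (log2 −1.52, SE 0.29, adjusted p = 0.00195). For each of these genes the treated and untreated libraries did not overlap, and the calls held with each library left out in turn, though PHGDH moved to −2.16 without shKDM3B_ATRA replicate 1 and −1.08 without replicate 2. ASNS showed a fitted log2 fold change of −4.10 (SE 0.27, adjusted p = 2.7e-06), with the reservation on its reads given above.

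The other members moved less in the knockdown cells. PSAT1 was at 96.6 and 106 CPM before and 76.4 and 65.9 CPM after ATRA, a 1.38-fold lower level (log2 −0.46, SE 0.14, adjusted p = 0.0190) under the fold threshold. With a library left out it lay between −0.59 and −0.36, and 1 of 13 alternatives called it lower. PSPH was at 51.5 and 58.5 CPM before and 44.9 and 38.0 CPM after, with a log2 fold change of −0.36 (SE 0.15, adjusted p = 0.0785). DDIT4 was at 98.3 and 70.5 CPM before and 58.8 and 60.6 CPM after, a log2 fold change of −0.45 (SE 0.17, adjusted p = 0.0537), which was not called. It lay between −0.67 and −0.24 with a library left out, and 1 of 13 alternatives called it lower. With the counts of its antisense neighbour DDIT4-AS1 added, the treated libraries would stand at 108 and 106 CPM. The untreated libraries do not name DDIT4-AS1 and get no such addition, so these sums cannot be compared with the untreated levels. ATF4 was at 253 and 313 CPM before and 268 and 281 CPM after, with a log2 fold change of 0.0082 (SE 0.13) whose sign changed with the scaling. SESN2 was at 10.2 and 13.3 CPM before and 11.1 and 14.5 CPM after.

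Both ATRA comparisons were set beside the test of their difference, the interaction over all 8 libraries. Of the 9 tested members only DDIT4 was called, where 3.99% of all 13528 genes were (1.27% higher and 2.72% lower). The DDIT4 ratio of responses was 2.10-fold lower in the knockdown cells (log2 −1.07, SE 0.29, adjusted p = 1.00), with the same reservation on DDIT4-AS1. TRIB3 had a value of −1.17 on the log2 scale with a larger error (SE 0.51) and missed the P threshold, but it was called without shNC replicate 2, shKDM3B replicate 1, shNC_ATRA replicate 1 or shKDM3B_ATRA replicate 2, at −1.37 to −1.56. With any 1 of the other 4 libraries left out it was not called, at −0.95 to −0.69. DESeq2, at −1.16, the likelihood ratio test, at −1.17, the fit with no filter, at −1.18, and the replicate block, at −1.20, called TRIB3 too, so that the call was gained in 8 of 16 alternatives. ASNS stood at 1.70 (SE 0.78), and it ran from 0.80 without shNC_ATRA replicate 1, not called, to 3.31 without shNC_ATRA replicate 2, called. DDIT4 was at −1.11 and −1.03 without shNC_ATRA replicate 1 and 2, called both times. Without a filter, with DESeq2 and with the likelihood ratio test ASNS was called as well. The other 6 members lay between −0.20 and 0.20. No gene of the fit passed an adjusted p of 0.05 with edgeR's quasi-likelihood test, while 607 had an unadjusted P under 0.05. With DESeq2 25 genes passed and with the likelihood ratio test 19, none of them a member.

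**Figure D3:**
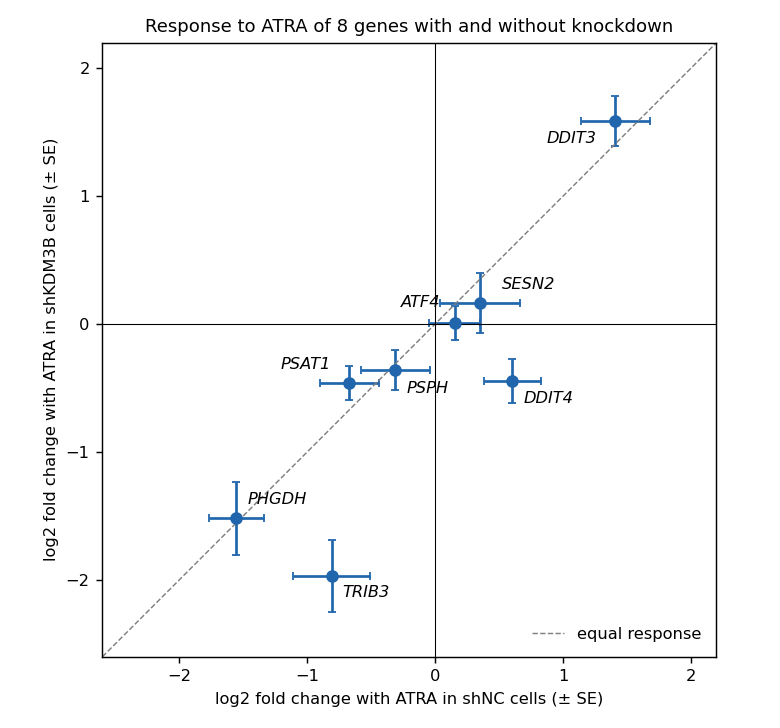
Log2 fold change with ATRA in shNC cells (horizontal axis) against that in shKDM3B cells (vertical axis), bars ± SE, for 8 of the 9 tested genes. ASNS is left out because of the doubt on its reads. DDIT4 is drawn without the counts of DDIT4-AS1, which the untreated libraries do not name. They would raise its shKDM3B_ATRA levels from 58.8 and 60.6 to 108 and 106 CPM. In shNC_ATRA they would raise replicate 2 from 113 to 194 CPM and leave replicate 1 at 106 CPM. DDIT4 lies below the line of equal response, at 0.60 in shNC and −0.45 in shKDM3B cells, and TRIB3 does so at −0.81 and −1.97, while DDIT3, PHGDH, PSPH and PSAT1 lie near the line.

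The effect of knockdown without ATRA was read from shKDM3B and shNC. In shKDM3B against shNC 0 of the 9 tested members were called, against 7.01% of all 13855 genes (3.48% higher and 3.53% lower), and with the edgeR test 1 of the 9, PHGDH, had an unadjusted P under 0.05. PHGDH stood at 70.0 and 65.8 CPM in shNC and at 41.9 and 52.0 CPM in shKDM3B, without overlap. It was 1.44-fold lower (log2 −0.53, SE 0.17, adjusted p = 0.322), and it was called when shKDM3B replicate 2 was left out, at −0.71. ATF4 had a log2 fold change of −0.20 (SE 0.16) and DDIT3 of −0.27 (SE 0.24). TRIB3, at 0.35 (SE 0.29), was called higher without shNC replicate 2, at 0.74, or without shKDM3B replicate 1, at 0.68, and had the opposite sign without shKDM3B replicate 2, at −0.093. The replicates of TRIB3 thus differed from each other by more than the groups did. The remaining members lay between −0.14 for PSAT1 and 0.24 for PSPH. At an adjusted p under 0.05, 0.0217% of all genes were called and no member, and DESeq2, with 278 genes, called no member either.

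Knockdown in the presence of ATRA was examined by comparing shKDM3B_ATRA with shNC_ATRA. DDIT4 was called lower, 1 of 9 tested members, against 6.79% of all 14281 genes in either direction (2.42% higher and 4.37% lower). At an adjusted p under 0.05 edgeR's quasi-likelihood test called 0 genes of the whole fit, and 1383 had an unadjusted P under 0.05. DESeq2, the tool of the study, called 357 genes at an adjusted p under 0.05 and 1.5-fold, of which DDIT4 was the 1 member, and the likelihood ratio test 41 and no member. DDIT4 stood at 106 and 113 CPM in shNC_ATRA and at 58.8 and 60.6 CPM in shKDM3B_ATRA, with tight replicates in both. It was 1.82-fold lower (log2 −0.87, SE 0.11, adjusted p = 0.502), and −0.90 on the log2 scale without shNC_ATRA replicate 1, the library that stands apart. DESeq2 gave nearly the same size, −0.86 (SE 0.15), with an adjusted p of 1.5e-06, and over all alternatives the adjusted p ran from 1.6e-09 to 1.00.

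Reads counted for the antisense neighbour of DDIT4 bear on this difference. DDIT4-AS1, which is named in the files of the treated libraries alone, had 1 count in shNC_ATRA replicate 1 and 881 in replicate 2, with 472 and 454 in the shKDM3B_ATRA libraries. Per 100 counts of DDIT4 these are 0.0580, 72.2, 84.6 and 75.3. The sums of both names stand at 106 and 194 CPM in shNC_ATRA and at 108 and 106 CPM in shKDM3B_ATRA. With the DDIT4-AS1 counts added to those of DDIT4, a sum chosen after seeing the data, the log2 fold change was −0.47 (SE 0.34) and the call was lost. Without shNC_ATRA replicate 1, which has the 1 count, the sum was called lower at −0.84 (SE 0.13), close to the −0.90 of DDIT4 alone there. The methods name a TruSeq RNA Sample Prep Kit and do not say whether strand was marked, and the strand setting of the counting is not given in the sources used here. In GENCODE v44 exons of other genes overlap 0% of the DDIT4 exon length on either strand. The exons used for DDIT4-AS1 in the counting are not known here. Reads of DDIT4 and of DDIT4-AS1 can therefore not be told apart with certainty.

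The other members did not pass in this comparison. TRIB3 was at 33.0 and 44.4 CPM in shNC_ATRA and at 16.6 and 26.9 CPM in shKDM3B_ATRA, without overlap, at a log2 fold change of −0.82 (SE 0.34, adjusted p = 0.535). It was called lower without shNC_ATRA replicate 1, at −1.02, and without shNC_ATRA replicate 2, at −0.60, but not without shKDM3B_ATRA replicate 1, at −0.51, or replicate 2, at −1.21. ATF4 was at 373 and 333 CPM in shNC_ATRA and at 268 and 281 CPM in shKDM3B_ATRA, a log2 fold change of −0.36 (SE 0.13, adjusted p = 0.515), and −0.27 without shNC_ATRA replicate 1. PHGDH had a log2 fold change of −0.51 (SE 0.44), with 21.5 and 10.2 CPM in the shKDM3B_ATRA libraries. It was −0.45 without shNC_ATRA replicate 1, and it moved to −1.13 without shKDM3B_ATRA replicate 1 and −0.064 without shKDM3B_ATRA replicate 2, not called in any of these. DDIT3, PSAT1, PSPH and SESN2 lay between −0.11 and 0.18, and between −0.26 and −0.042 without shNC_ATRA replicate 1. ASNS, at 1.63 (SE 1.03), rested on 2 to 15 counts per library. It was not called without shNC_ATRA replicate 1, at 0.81, and was called higher without shNC_ATRA replicate 2, at 3.29.

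Further genes of the pathway were read from 8 lists, given by their counts beside the shares of all genes above. The lists cover eIF2 kinases and phosphatase subunits, bZIP partners, serine, folate and proline enzymes, amino acid transporters, tRNA synthetases, other targets, mTORC1 brakes and chaperones of the endoplasmic reticulum (ER). With ATRA in shNC cells the median log2 fold change was −0.60 over the 10 tested serine, folate and proline genes and −0.52 over the 9 transporters, against 0.016 over all genes tested. Of the serine, folate and proline genes 0 were called higher and 4 lower. GPT2, an alanine aminotransferase, fell from 50.0 and 86.8 CPM to 8.95 and 10.1 CPM (log2 −2.81, SE 0.32, adjusted p = 0.00196). PYCR1, which completes proline synthesis, fell from 47.6 and 61.5 CPM to 15.7 and 15.7 CPM (log2 −1.76, SE 0.24, adjusted p = 0.00376). The other called genes, named here after their values were seen, were MTHFD1L (log2 −0.85) and ALDH18A1 (−0.85).

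Amino acid transporters were called in both directions in shNC cells, 1 higher and 4 lower of 9. SLC7A5, the light chain of the large neutral amino acid transporter, fell from 419 and 612 CPM to 110 and 76.2 CPM (log2 −2.44, SE 0.29, adjusted p = 0.00233). SLC1A4, a neutral amino acid transporter, fell from 28.5 and 37.0 CPM to 7.84 and 6.55 CPM (log2 −2.15, SE 0.27, adjusted p = 0.00305). SLC38A1, a glutamine transporter, fell by 1.19 on the log2 scale (SE 0.20, adjusted p = 0.00924). SLC3A2 (log2 −0.84) was also lower and SLC7A11 (0.87), a cystine transporter, was the higher one, both named after their values were seen. Among the 5 tested bZIP partners 1 was called: CEBPB, which binds C/EBP-ATF sites as a dimer, rose from 16.7 and 16.9 CPM to 183 and 118 CPM (log2 3.20, SE 0.27, adjusted p = 6.9e-04).

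The remaining lists were mixed in shNC cells. Of 13 tRNA synthetase and export genes, WARS, which charges tryptophan, rose (log2 1.56, SE 0.20, adjusted p = 0.00305), IARS was lower (log2 −0.60, adjusted p = 0.101), and the median was −0.32. Of 10 other targets 3 were called higher and 0 lower: SQSTM1, an autophagy receptor, at a log2 fold change of 1.08 (adjusted p = 0.0139), MAP1LC3B, an autophagosome protein, at 0.97 (adjusted p = 0.0514), and GDF15, a stress-induced cytokine, with 0 and 2 counts in shNC and 53 and 60 in shNC_ATRA. Of 8 mTORC1 brakes 1 was called lower, DEPTOR, with 41 and 31 counts in shNC and 6 and 2 in shNC_ATRA. Of 10 ER chaperone genes 1 was called higher, EDEM1 (log2 0.87), and 3 lower, CALR (−1.54), PDIA4 (−0.71) and, named after its value was seen, HYOU1 (−0.69). None of the 9 tested eIF2 kinase and phosphatase genes was called, with a median of −0.073. Over the 8 lists 20 of 74 genes (27%) were called, near the 25.9% of all genes. Without shNC_ATRA replicate 2, a setting added after seeing the data, 17 of the 20 calls were kept, those of HYOU1 (−0.50), PDIA4 (−0.55) and IARS (−0.54) were lost, 6 were gained, and no called gene changed sign. That made 23 of 75 genes, where 24.7% of all genes were called.

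In shKDM3B cells the lists moved with ATRA as follows. Of 10 serine, folate and proline genes 0 were called higher and 5 lower, with a median of −0.67 against 0.045 over all genes. GPT2 fell from 71.5 and 96.7 CPM to 7.90 and 6.63 CPM (log2 −3.48, SE 0.21, adjusted p = 1.4e-06), PYCR1 had a log2 fold change of −2.15 (SE 0.18), and CTH, which makes cysteine from cystathionine, one of −1.67 (SE 0.37). MTHFD1L (−0.95) and ALDH18A1 (−0.84), again named after their values were seen, were lower too. Of 9 transporters 0 were called higher and 4 lower, with SLC1A4 at −2.37 (SE 0.23), SLC7A5 at −2.29 (SE 0.24) and SLC3A2, the heavy chain that pairs with SLC7A5, at −1.01 (SE 0.15), and SLC38A1, named after its value was seen, at −0.59. CEBPB rose from 11.5 and 11.7 CPM to 44.1 and 46.5 CPM (log2 2.02, SE 0.16, adjusted p = 7.6e-06), the 1 call among 5 bZIP partners.

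Other targets split in the knockdown cells, 2 called higher and 5 lower of 10. BBC3, the apoptosis protein PUMA, had a log2 fold change of −2.46 (SE 0.39, adjusted p = 6.9e-04), and INHBE, an inhibin subunit, one of −1.89 (SE 0.47, adjusted p = 0.00837). STC2, a stanniocalcin, had 42 and 81 counts in shKDM3B and 0 and 0 in shKDM3B_ATRA, at least 7.52-fold lower against a floor of 3 counts per library. The others, named after their values were seen, were EIF4EBP1 (log2 −0.90) and VLDLR (−0.59), lower, and SQSTM1 (0.92) and MAP1LC3B (0.98), higher. WARS was higher (log2 1.32) and IARS lower (−0.60) of the 13 synthetase and export genes. TSC2 (log2 −0.59) and DEPTOR, with 48 and 59 counts before and 2 and 1 after, were called lower among the 8 mTORC1 brakes. Of 10 ER chaperone genes 2 were called higher and 4 lower, led by CALR (log2 −1.56), XBP1 (−1.24) and EDEM1 (1.07), and with PDIA4 (−0.92), HYOU1 (−1.03) and DNAJB9 (0.91) named after their values were seen. PPP1R15A, which guides the phosphatase that resets eIF2, was lower (log2 −0.70, adjusted p = 0.0306), 1 of 9 in its list. Over the 8 lists 28 of 74 genes (37.8%) were called, against 42.2% of all genes.

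Between knockdown and control without ATRA the lists held 6 called genes of 74 tested (8.11%, against 7.01% of all genes), all higher and none at an adjusted p under 0.05. SESN3, a relative of SESN2, stood at 99.2 and 102 CPM in shNC and at 292 and 168 CPM in shKDM3B (log2 1.20, SE 0.24, adjusted p = 0.130). The others were SLC38A1 (log2 0.62), XBP1 (0.77), TNFRSF10B (0.62), INHBE (1.64) and STC2, which had 2 and 30 counts in shNC and 42 and 81 in shKDM3B. No bZIP partner, synthetase, eIF2 gene or serine, folate and proline gene was called, and their medians lay between −0.044 and 0.047. The medians were 0.34 for other targets, 0.31 for ER chaperones, 0.22 for mTORC1 brakes and 0.11 for transporters, against 2.2e-04 over all genes.

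With ATRA present, 11 of 71 tested genes of the lists (15.5%, against 6.79% of all genes) were called between knockdown and control, each at an adjusted p of 0.502 or more. Lower in shKDM3B_ATRA were CEBPB (log2 −1.73, SE 0.27), with 183 and 118 CPM in shNC_ATRA against 44.1 and 46.5 CPM, and JDP2, another bZIP protein (−1.36, SE 0.37). PCK2, mitochondrial phosphoenolpyruvate carboxykinase (−0.93, SE 0.24), and SLC7A11 (−0.96, SE 0.18), were lower too. So were GDF15 (−2.24, SE 0.76, with 4 and 14 counts in shKDM3B_ATRA) and BBC3 (−2.06, SE 0.48), and EIF4EBP1 (−0.60), named after its value was seen. Higher were SLC38A1 (1.20, SE 0.15), SLC38A2, a transporter of small neutral amino acids (0.78, SE 0.20), SESN3 (1.59, SE 0.22) and VLDLR, a lipoprotein receptor (1.12, SE 0.29). No synthetase, eIF2 or ER chaperone gene was called. Without shNC_ATRA replicate 1, again a setting added after seeing the data, 9 of the 11 calls were kept, those of EIF4EBP1 (−0.49) and SLC38A2 (0.58) were lost and 4 were gained, namely ATF5 (0.62), MAP1LC3B (−0.59), SDF2L1 (−0.70) and TSC1 (0.65), named after their values were seen. That made 13 of 71 genes, close to the 17% of all genes called in that setting. In the interaction, CEBPB (log2 −1.20), PCK2 (−0.85) and BBC3 (−2.48) were called lower, all at an adjusted p of 1.00, which is 3 of 75 genes (4%, against 3.99% of all genes). All 3 were kept without either shNC_ATRA library, but the count rose to 6 of 76 without replicate 1 (where 5.65% of all genes were called) and to 9 of 76 without replicate 2 (where 17.4% were). The genes gained, named after their values were seen, were INHBE (−2.23), SLC38A1 (0.69) and XBP1 (−0.85) without replicate 1, and DEPDC5, GCN1, JDP2, SLC7A11 and TSC2, lower, with SLC38A2, higher, without replicate 2.

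Across the 8 libraries the 10 genes did not move as a block. Of 45 pairs of members, 26 had a positive Pearson correlation of log2 level, 9 of them over 0.7, and the values ran from −0.95 to 0.94. The points of these correlations share their libraries, conditions and scaling. Both extremes involve ASNS, with DDIT3 at the low end and PSAT1 at the high end, and so rest on reads that are in doubt. Among the 36 pairs without ASNS the values ran from −0.85, for DDIT3 and PHGDH, to 0.88, for PSAT1 and PHGDH, with 21 positive and 5 over 0.7. CHAC1, at 0 to 5 counts per library, enters these pairs and the mean profile below, and among the 28 pairs without both genes 15 were positive and 4 over 0.7, with the same extremes. By the same measure, over 9780 genes with a mean of at least 5 CPM, the genes most like ATF4 included COQ8B (0.98), DCAF15 (0.97) and SNRPA (0.97). The genes most like the mean standardised profile of the 10 members were RPL3P4 (0.98), YIF1A (0.98), FAM69B (0.97), MCUR1 (0.97) and PPP1R14BP3 (0.96).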

How the data were processed

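RNA of NB4 cells was sequenced in 8 libraries. The authors trimmed the reads, aligned them to hg38 with HISAT2 and counted them on genes with HTSeq, for which the methods name a RefSeq refFlat annotation, and the deposited values are unnormalised counts per gene. The gene names differed between the untreated and the ATRA-treated files and include clone-based names. Tool versions and the strand setting are not given in the sources used here. HTSeq's summary lines were left out of library sizes. Groups were taken from the labels. No 2 libraries were copies: among names with 10 or more counts, at most 1.58% held equal values.

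Each pair of conditions was fitted separately with edgeR 4.0.16 in R 4.3.3 (filterByExpr, TMM, quasi-likelihood F test), and the interaction over all 8 libraries, with Benjamini-Hochberg adjustment over all genes tested. With 2 libraries per group the smallest two-sided permutation p is 0.333, so no permutation test was made. Comparisons between untreated and treated cells used the 37526 shared names, and the others the names of their own files. Procedures were tested on simulated data. Tables were handled with Python 3.11.15 and pandas 2.3.3. Positions and exon overlaps came from GENCODE v44, and promoter starts from RefSeq (GRCh38.p14). For lists, at most the 3 called genes with the largest absolute log2 fold change were named by rule, and the text marks further ones as named after their values were seen. Some genes that these rules select are not reported here. The members and lists were chosen with earlier results of these data known.

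Alternatives were other scalings, filters, tests (DESeq2 1.42.0, likelihood ratio) and thresholds, all libraries in one fit, a replicate block and each library left out. Shared names for the knockdown comparisons, DDIT4 and ASNS summed with their neighbours (also without shNC_ATRA replicate 1), and the lists without 1 shNC_ATRA library, were added after the data were seen.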

Additional observations from a re-analysis of the deposited data

Results flagged for a closer look

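The response of DDIT4 to ATRA in shKDM3B cells minus that in shNC cells was −1.07 on the log2 scale (SE 0.29). It stands out because the edgeR test of the difference between both responses passed the unadjusted threshold, but the adjusted p was 1.00. The rise of DDIT4 with ATRA in shNC cells was called, though not in 8 of 13 alternatives. Its log2 fold change of −0.45 in shKDM3B cells was not called, except in 1 of 13 alternatives. The difference between the responses lay between −1.27 and −0.81 with each library left out. The counts of DDIT4-AS1 differ among the treated libraries, and their part in this difference was not tested in the interaction.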

How the results depend on the processing

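Counts of called members moved as follows. For shKDM3B_ATRA against shNC_ATRA (1 called) the count was 2 without a filter, with all 8 libraries in one fit and with a replicate block, 0 with antisense and neighbouring counts added, 2 with that sum but without shNC_ATRA replicate 1, 0 at an adjusted p under 0.05 and 1 to 3 with a library left out. For the interaction (1 called) it was 3 without a filter, with DESeq2 and with the likelihood ratio test, 2 with the replicate block, 0 when adjusted and 1 to 2 with a library left out. For shNC_ATRA against shNC (6 called) it was 3 when adjusted, and 3 without shNC replicate 2, the lowest of 3 to 6 with a library left out. For shKDM3B against shNC (0 called) it was 0 to 1 with a library left out. For shKDM3B_ATRA against shKDM3B (4 called) it was 4 to 5. The call of TRIB3 was gained with the replicate block in the first 2 of these, and the call of DDIT4 was lost with it in shNC_ATRA against shNC. Same-numbered libraries had correlated deviations of 0.424, 0.0328, −0.0903 and 0.210 in shKDM3B against shNC, shKDM3B_ATRA against shNC_ATRA, shNC_ATRA against shNC and shKDM3B_ATRA against shKDM3B. With 2 pairs each, the numbers are not shown to pair the libraries. The interaction called 501 of 13528 genes with DESeq2, 556 with the likelihood ratio test and 538 with the replicate block, and without a filter it covered 21090 genes. Where 3 members were called in it, ASNS, whose reads are in doubt, was among them. For shKDM3B_ATRA against shNC_ATRA 1249 of 26438 genes were called without a filter and 1434 of 13528 with all 8 libraries in one fit. Over all genes, the 969 calls of shKDM3B_ATRA against shNC_ATRA became 641 with the likelihood ratio test, 525 with the replicate block and 134 to 5360 with a library left out, and the 540 of the interaction became 941 without a filter and 285 to 2432 with a library left out. With a library left out, the 3213 of shNC_ATRA against shNC became 1462 to 5142 and the 971 of shKDM3B against shNC 943 to 1650.

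Some log2 fold changes near 0 changed sign. ATF4 in shKDM3B_ATRA against shKDM3B was −0.0057 with DESeq2's size factors or DESeq2, −0.038 by library size, −0.059 by upper quartile, −0.025 without a filter, −0.044 with all 8 libraries and −0.19 to 0.17 with a library left out. ASNS in shKDM3B against shNC was −0.017 by library size, −0.046 by upper quartile and −0.042 to 0.061 with a library left out. In the interaction PHGDH was −0.022 with the replicate block and −0.58 to 0.46 with a library left out, and PSPH was 0.011 by library size and −0.30 to 0.19 with a library left out. With a library left out, shKDM3B against shNC ranged from −0.059 to 0.41 for DDIT4, −0.093 to 0.74 for TRIB3 and −0.17 to 0.41 for SESN2. Likewise shKDM3B_ATRA against shNC_ATRA ranged from −0.26 to 0.086 for DDIT3, −0.12 to 0.27 for PSAT1, −0.042 to 0.43 for PSPH and −0.32 to 0.072 for SESN2. With the antisense and neighbouring counts added and shNC_ATRA replicate 1 left out, PSAT1 was at −0.12 and PSPH at −0.043 in that comparison. SESN2 in shKDM3B_ATRA against shKDM3B ranged from −0.062 to 0.37. The interaction ranged from −0.30 to 0.052 for ATF4, −0.0037 to 0.37 for DDIT3 and −0.52 to 0.062 for SESN2. The causes were not tested. Where a group is left with 1 library, it is assumed to vary like the others. Of the values of single members under alternatives, 569 kept their direction and side of the threshold, 25 gained a call, 14 lost one and 40 changed sign. Depth limits CHAC1, with at most 5 counts per library, and ASNS after ATRA.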

Other observations

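Copies of the members were read as a check on shared reads. PSPHP1, a pseudogene of PSPH, had 80 and 81 counts in shNC, 109 and 98 in shKDM3B, 55 and 147 in shNC_ATRA and 94 and 112 in shKDM3B_ATRA, against 378 to 1907 counts of PSPH. ATF4P3 had 1 to 13 counts per library, against 2545 to 10186 of ATF4. ASNSP3 had 0 to 14 counts per library, which in the treated libraries, at 1, 9, 14 and 10, is close to the 2, 8, 15 and 10 counts of ASNS itself. PSAT1P1, PSAT1P2, PSAT1P3 and PSAT1P4 were at 0 in all libraries.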
